A study of Homo sapiens with 6 samples.

Results

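MAF, CCND1, CCND2, CCND3, NSD2 and FGFR3 are the genes that recurrent translocations place beside immunoglobulin enhancers in multiple myeloma, a cancer of antibody-secreting plasma cells, and ITGB7 is a well-known target of MAF in that disease. They were taken by symbol and matched through their Ensembl identifiers. They are 7 of the 61498 genes in the deposited tables, and all 7 passed the filter on low counts.

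MAF is a basic leucine zipper transcription factor that binds DNA as a dimer and, in myeloma, is known to raise CCND2 and ITGB7. The D-type cyclins CCND1, CCND2 and CCND3 bind the kinases CDK4 and CDK6, which phosphorylate RB1 and release E2F factors at the start of the cell cycle, and most myelomas carry high levels of at least 1 of them. NSD2 is a methyltransferase of lysine 36 on histone H3, a mark that opposes the repressive lysine 27 mark written by EZH2. FGFR3 is a receptor tyrosine kinase that lies close to NSD2 and is often activated by the same translocation. ITGB7 encodes the integrin beta 7 chain, which pairs with ITGA4 or ITGAE and lets plasma cells hold to marrow stroma and gut endothelium.

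RNA was measured in 3 untreated human cell lines, each as 2 libraries of total RNA from which ribosomal RNA was removed. RPMI-8226 is a myeloma line known to carry a rearrangement of MAF to an immunoglobulin light chain locus, RPMI-8226-R was derived from it and resists bortezomib, a proteasome inhibitor, and NCI-BL2171 is labelled, like the other lines, as B lymphocytes. Each line is a single culture lineage, and the labels do not say whether RPMI-8226-R is a clone, or whether paired libraries stem from different cultures. The p-values therefore measure only the spread between libraries, which may be technical.

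The 6 libraries held 23952370 to 29052199 estimated reads. Plasma cell markers (6 genes, among them JCHAIN and IRF4) summed to 1683 to 1787 TPM (a level scaled by transcript length and library depth) in RPMI-8226 libraries, against 3595 to 3681 TPM for RPMI-8226-R. In the libraries labelled NCI-BL2171 they summed to 47.9 to 50.5 TPM with 3 of 6 at 0, B cell markers summed to 4.77 to 4.84 TPM, and 6 erythroid markers, led by the fetal globin HBG1, summed to 17291 to 17857 TPM. For the RPMI-8226 lines the erythroid sum was 31.0 to 36 TPM and, in the resistant line, 103.4 to 115.2 TPM. The markers thus go against the label, so the text speaks throughout of the libraries labelled NCI-BL2171, and the part of this difference in cell type in the comparisons with it was not tested.

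By GENCODE 29 on GRCh38, MAF (ENSG00000178573.7) lies on the minus strand of chromosome 16 from 79585843 to 79600714, and ITGB7 (ENSG00000139626.16) on the minus strand of chromosome 12 from 53191318 to 53207307. CCND1 (ENSG00000110092.4) lies on chromosome 11 from 69641087 to 69654474 on the plus strand, CCND2 (ENSG00000118971.9) on chromosome 12 from 4273772 to 4305350 on the plus strand, and CCND3 (ENSG00000112576.13) on chromosome 6 from 41934933 to 42050357 on the minus strand. FGFR3 (ENSG00000068078.20) and NSD2 (ENSG00000109685.19) both lie on the plus strand of chromosome 4, from 1793293 to 1808872 and from 1871424 to 1982207, with a gap of 62.6 kb.

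The promoters of MAF and ITGB7 are shown because these 2 genes had the largest differences between the RPMI-8226 lines and the libraries labelled NCI-BL2171. Each sequence is the 250 bases before the RefSeq gene start on GRCh38.p14, 5′ to 3′ on the gene's strand, with motif matches in capitals. The RefSeq table held a promoter for 5 of the 7 genes.
MAF, minus strand, chr16:79600738-79600987: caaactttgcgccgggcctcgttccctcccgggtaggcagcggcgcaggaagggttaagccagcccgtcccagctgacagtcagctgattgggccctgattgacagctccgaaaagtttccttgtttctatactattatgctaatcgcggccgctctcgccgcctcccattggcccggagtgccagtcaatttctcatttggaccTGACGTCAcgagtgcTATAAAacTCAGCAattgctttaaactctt
ITGB7, minus strand, chr12:53207252-53207501: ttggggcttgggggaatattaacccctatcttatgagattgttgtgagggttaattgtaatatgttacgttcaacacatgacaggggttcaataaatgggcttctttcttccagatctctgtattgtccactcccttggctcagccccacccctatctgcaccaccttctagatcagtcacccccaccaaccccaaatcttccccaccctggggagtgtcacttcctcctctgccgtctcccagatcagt

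The capitals in MAF mark a cyclic AMP response element (TGACGTCA) that starts 45 bases before the start, a TATA box (TATAAA) at 30 bases and, on the opposite strand, the half-site of a MAF recognition element (TGCTGA, read here as TCAGCA) at 22 bases. Both strands were searched for these and for the AP-1 site (TGACTCA). The 3 matches in MAF do not overlap each other, and the ITGB7 window held no match. Of 35116 promoter windows of the same length, 1.65% held the cyclic AMP response element, 10.7% the TATA box, 14% the half-site and 4.2% the AP-1 site. The GC content was 54.4% in MAF and 49.6% in ITGB7, against a median of 58.0% over all windows and a 5th to 95th percentile range of 34.4% to 78.4%.

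MAF was absent from the reads of the libraries labelled NCI-BL2171, high in RPMI-8226 and higher again in RPMI-8226-R. It had 0 reads in both libraries labelled NCI-BL2171, which allows up to 3 reads in each. It stood at 140.3 and 138.0 TPM in RPMI-8226, against 272.5 and 333.5 TPM for RPMI-8226-R, on 22027, 20971, 32637 and 40434 reads. The RPMI-8226-R libraries were both above the RPMI-8226 libraries, a trait whose share over all tested genes was not counted. Their own spread was wider than that of RPMI-8226.

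What differs in the bortezomib-resistant derivative was read from RPMI-8226-R set against RPMI-8226. In edgeR's quasi-likelihood test with Benjamini-Hochberg adjustment, 65.6% of 20081 tested genes were called in this comparison, 28.5% higher and 37.2% lower in RPMI-8226-R, and all 7 translocation genes were called, 2 higher and 5 lower. A call was therefore common in this comparison, and the sizes below say more than the calls. MAF rose by 0.66 ± 0.07 on the log2 scale (1.58-fold, adjusted p = 4.6e-08), on read counts scaled by TMM. The ratio of mean TPM was 2.18, since TPM and TMM place the 2 lines on different scales: over all tested genes the log2 difference was a median of 0.36 higher in TPM, and on log2(TPM + 1) 7030 genes were called higher and 4557 lower, against 5716 and 7461 on counts. Directions were compared on both scales, and it is said of the genes below where a called direction parts between them.

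**Figure D1:**
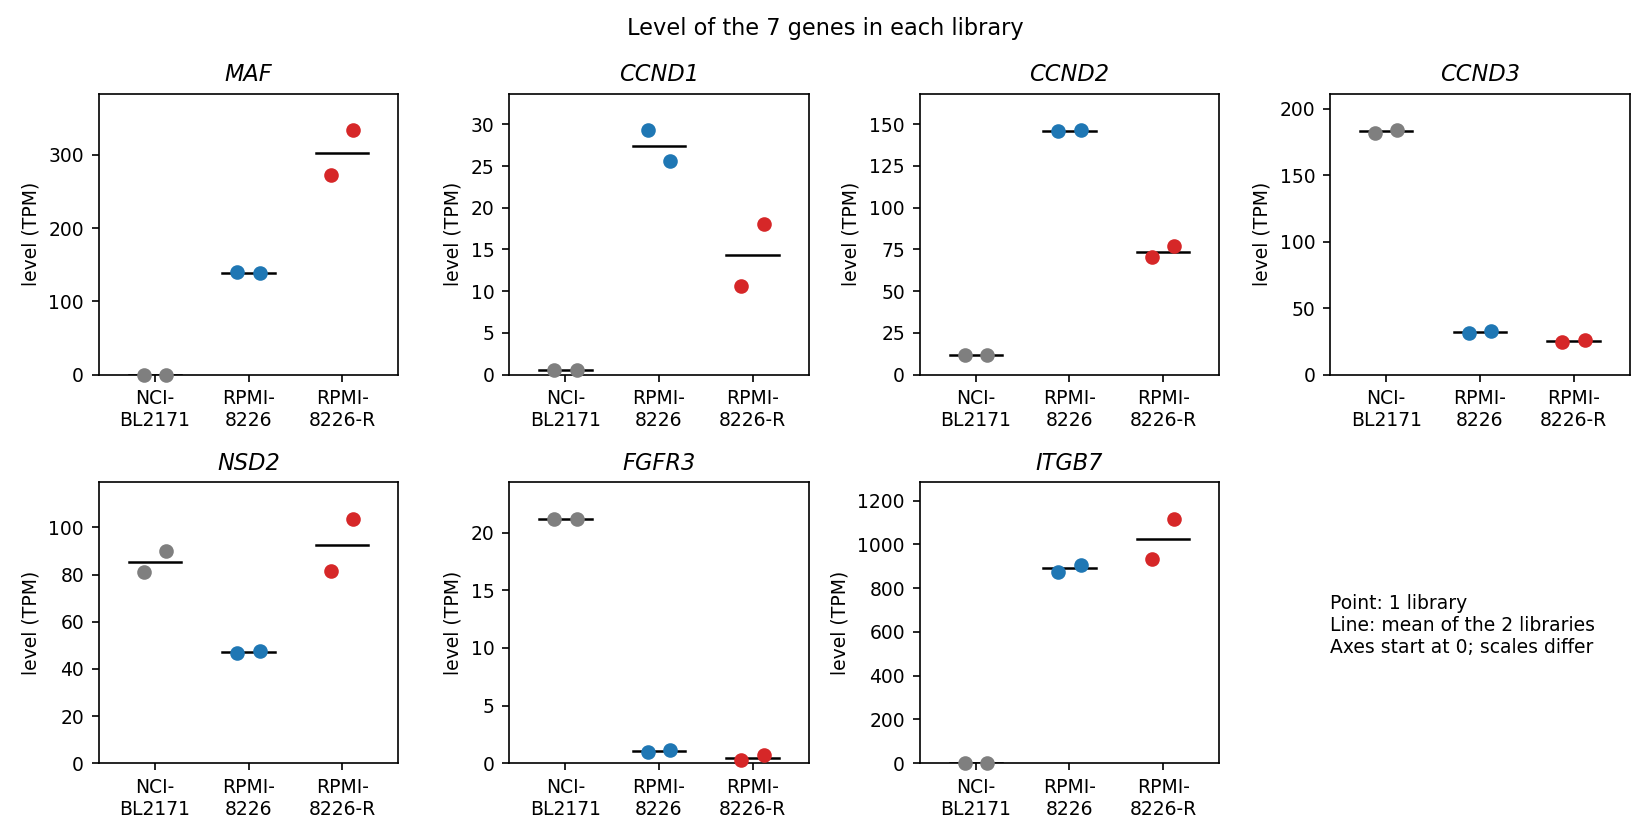
Level of each gene in TPM (vertical axes, each starting at 0 with its own scale) in the 6 libraries, with 1 point per library and a line at the mean of each line's 2 libraries. MAF and ITGB7 are at or near 0 in the libraries labelled NCI-BL2171, CCND3 and FGFR3 are highest there, and NSD2 is lowest in RPMI-8226.

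Against the libraries labelled NCI-BL2171, MAF was at least 7136-fold higher in RPMI-8226 (edgeR adjusted p = 4.8e-23) and at least 11309-fold higher in RPMI-8226-R (adjusted p = 2.5e-23), with 3 reads per library as the floor. In these comparisons 76.7% and 77.4% of tested genes were called, where 41.1% and 39.2% were higher and 35.6% and 38.2% lower in the RPMI-8226 lines. Of the 7 genes, 4 were higher and 3 lower in RPMI-8226, and 4 were higher and 2 lower in RPMI-8226-R. The 3 comparisons share libraries and are not independent of each other.

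MAFA, a close relative of MAF, was at 0.817 and 0.936 TPM in RPMI-8226, against 0.161 and 0.071 TPM for RPMI-8226-R, a fall of 3.31 ± 0.44 on the log2 scale (adjusted p = 9.6e-07). The family as a whole also holds the small MAF proteins, which lack an activation domain, and the CNC factors that pair with them. Of 11 genes of the family tested beside MAF, 0 rose, 9 fell and 2 were not called (all tested genes: 28.5% rose, 37.2% fell). The median log2 fold change was -0.86, against -0.12 over all tested genes. On log2(TPM + 1) 4 fell and 0 rose, with a median of -0.27. In RPMI-8226 6 were higher and 2 lower than in the libraries labelled NCI-BL2171 (all tested genes: 41.1% and 35.6%). In RPMI-8226-R 3 were higher and 8 lower (all tested genes: 39.2% and 38.2%).

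The small MAF gene MAFF, which is induced by stress, was at 18.7 and 18.9 TPM in RPMI-8226, against 4.15 and 4.06 TPM for RPMI-8226-R, a fall of 2.58 ± 0.11 on the log2 scale (adjusted p = 1.2e-14). NFE2L1, the activator of proteasome genes, was at 61.6 and 54.4 TPM in RPMI-8226, against 32.1 and 43.3 TPM for RPMI-8226-R, a fall of 1.14 ± 0.06 (adjusted p = 1.1e-12). Neither gene had overlapping values between the lines. NFE2L3 was at 35.4 and 36.1 TPM in RPMI-8226, 32.2 and 32.1 TPM for RPMI-8226-R and 5.65 and 6.49 TPM in the libraries labelled NCI-BL2171, where it was 6.68-fold below RPMI-8226 (adjusted p = 1.1e-17). NFE2, the erythroid member of the family, showed the reverse order: 61.2 and 59.9 TPM in the libraries labelled NCI-BL2171, and 0.022 and 0.103 TPM in RPMI-8226. In the libraries labelled NCI-BL2171 the erythroid marker sum was high as well.

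The list of 11 genes linked to MAF in myeloma did not move as a block in RPMI-8226-R, where MAF was higher. Of these 11 genes, 3 rose, 7 fell and 1 was not called (all tested genes: 28.5% rose, 37.2% fell). The median log2 fold change was -0.91, against -0.12 over all tested genes. On log2(TPM + 1) 3 rose and 6 fell, with a median of -0.27. The 3 that rose are all surface receptors, but so is NTRK2, which fell. NTRK2 was at 0.599 and 0.424 TPM in RPMI-8226, against 0.012 and 0 TPM for RPMI-8226-R, on 81, 86, 2 and 0 reads. CX3CR1, the fractalkine receptor, was at 17.1 and 18.0 TPM in RPMI-8226, against 309.7 and 347.1 TPM for RPMI-8226-R, a rise of 14.4-fold (3.85 ± 0.07 on the log2 scale, adjusted p = 4.4e-20). CCR1, a receptor for inflammatory chemokines, was at 20.2 TPM in both RPMI-8226 libraries and at 94.7 and 104.4 TPM in RPMI-8226-R, a rise of 3.79-fold (adjusted p = 3.9e-15). TLR4, the endotoxin receptor, was low in both lines, at 1.09 and 1.01 TPM and then at 4.74 and 5.90 TPM, and rose 4.22-fold (adjusted p = 6.3e-11). For all 3 genes the lowest RPMI-8226-R library was more than 3 times the highest RPMI-8226 library.

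The genes that fell included DEPTOR, an inhibitor bound to mTOR, at 19.7 and 17.5 TPM in RPMI-8226, against 1.66 and 1.75 TPM for RPMI-8226-R (13.9-fold lower, adjusted p = 5.7e-16). The cytidine deaminase APOBEC3B was at 188.0 and 175.1 TPM in RPMI-8226, against 70.5 and 75.1 TPM for RPMI-8226-R (3.35-fold lower, adjusted p = 1.2e-15). Its relative APOBEC3A was at 6.51 and 4.48 TPM and at 2.54 and 1.52 TPM (3.47-fold lower, adjusted p = 8.4e-06), and reads of such close copies may be split between them. APOBEC3B and NTRK2 were chosen for mention after their values were seen, as were TLN1 and AMBRA1 in the lists that follow. SPP1, osteopontin, remained abundant at 133.3 and 157.4 TPM in RPMI-8226-R against 188.6 and 212.0 TPM in RPMI-8226 (1.88-fold lower, adjusted p = 4.1e-10). NUAK1, a kinase of the AMPK family, was at 2.01 and 1.97 TPM and at 2.08 and 2.48 TPM, and was not called (log2 fold change -0.19 ± 0.15, adjusted p = 0.28), with a mean slightly lower in counts and slightly higher in TPM.

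Set against the libraries labelled NCI-BL2171, 10 of the 11 MAF-linked genes were higher and 1 lower in RPMI-8226 (all tested genes: 41.1% and 35.6%). Their median log2 fold change was 9.42, or 5.85 with genes at 0 set to their lower bound. In RPMI-8226-R 9 were higher, 1 lower and 1 not called (all tested genes: 39.2% higher, 38.2% lower), with a median of 4.74. CCR1, NUAK1, TLR4, SPP1 and NTRK2 had 0 reads in both libraries labelled NCI-BL2171. SPP1 was at least 1422-fold higher in RPMI-8226 (adjusted p = 1e-21) and CCR1 at least 528.6-fold higher (adjusted p = 2.5e-20). The exception was SMARCA1, a chromatin remodeller, at 2.21 TPM in both of those libraries and 0.126 and 0.088 TPM in RPMI-8226 (17.8-fold lower, adjusted p = 4.7e-11).

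**Figure D2:**
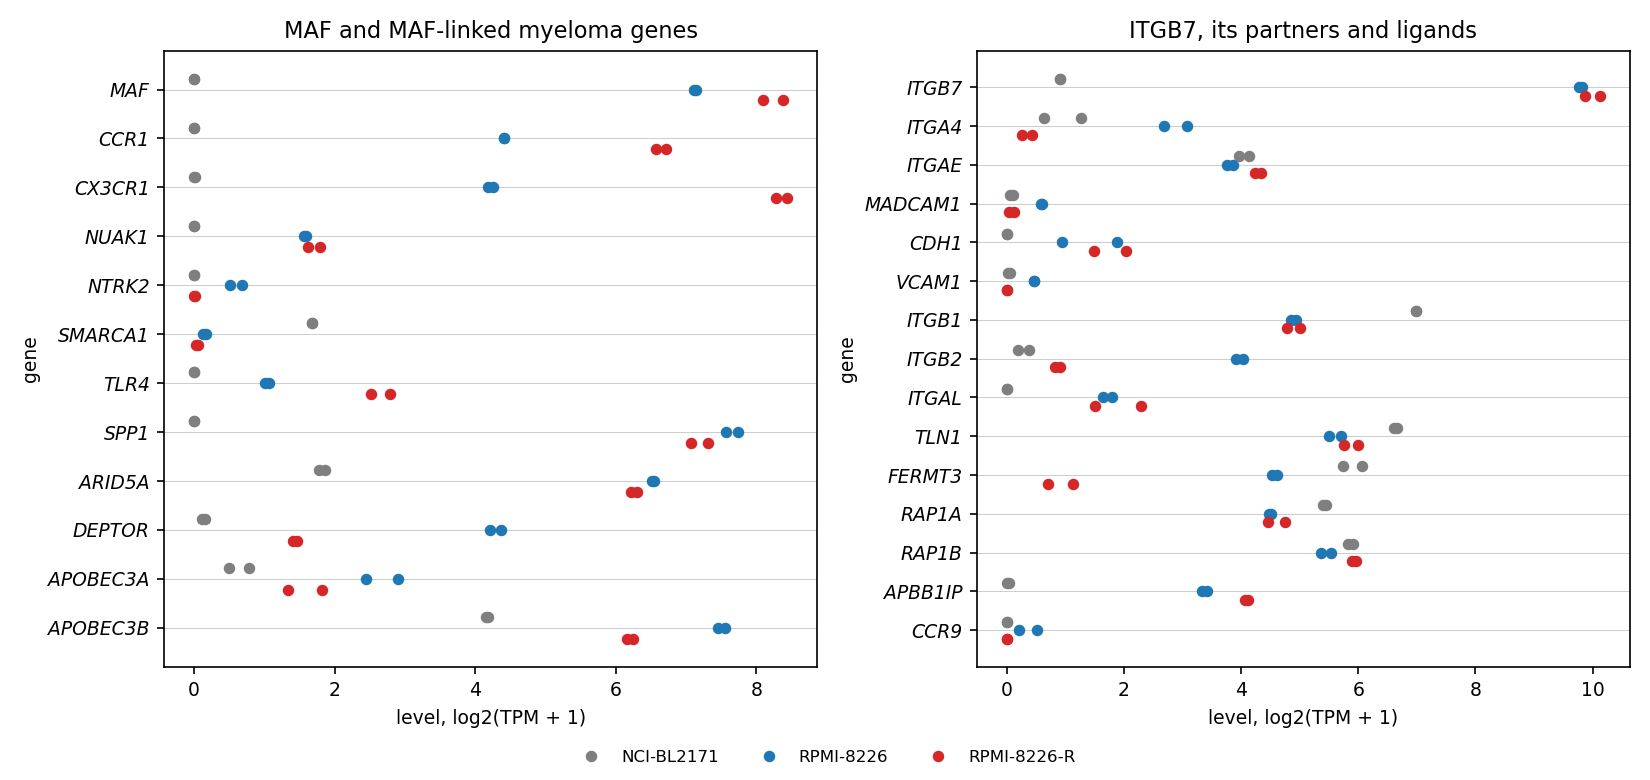
Level as log2(TPM + 1) (horizontal axes) of MAF and 11 MAF-linked genes (left) and of ITGB7 and 14 partners and ligands (right), with 1 point per library, coloured by line. CX3CR1, CCR1 and TLR4 sit further right in RPMI-8226-R than in RPMI-8226, DEPTOR, ITGA4, ITGB2 and FERMT3 further left, and ITGB7 itself is nearly level between the 2 lines.

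ITGB7 was the most abundant of the 7 transcripts in both RPMI-8226 lines, at 875.7 and 906.2 TPM in RPMI-8226, against 932.9 and 1118 TPM for RPMI-8226-R, and stood at 0.876 and 0.877 TPM in the libraries labelled NCI-BL2171. It was 1086-fold higher in RPMI-8226 than in those libraries (log2 10.08 ± 0.11, adjusted p = 8.6e-25) and 972.3-fold higher in RPMI-8226-R (log2 9.93 ± 0.11, adjusted p = 3.3e-24). Between RPMI-8226-R and RPMI-8226 it hardly moved: it was called lower by 0.16 ± 0.06 on the log2 scale (adjusted p = 0.028) on counts, but on log2(TPM + 1) it was 0.20 higher and not called (adjusted p = 0.11). The call was also lost with DESeq2 size factors and without single libraries, so no direction is drawn for it.

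Of the alpha chains that pair with ITGB7, ITGA4 fell and ITGAE was not called. ITGA4, the alpha 4 chain of the gut-homing and marrow-homing integrin, was at 5.44 and 7.48 TPM in RPMI-8226, against 0.349 and 0.195 TPM for RPMI-8226-R, on 392, 437, 22 and 22 reads. It fell 20.1-fold (4.33 ± 0.25 on the log2 scale, adjusted p = 2.2e-12), below its level of 0.561 and 1.42 TPM in the libraries labelled NCI-BL2171. ITGAE, the other alpha chain known to pair with ITGB7, was at 13.6 and 12.5 TPM in RPMI-8226, against 17.8 and 19.2 TPM for RPMI-8226-R, and was not called (log2 fold change 0.13 ± 0.15, adjusted p = 0.46). The TPM ratio of ITGB7 to ITGA4 was 160.9 and 121.1 in RPMI-8226 and 2673 and 5735 in RPMI-8226-R, and that of ITGB7 to ITGAE was 64.4 and 72.7 and then 52.4 and 58.3. In TPM, ITGAE mRNA thus exceeded ITGA4 mRNA in all 6 libraries, by more in RPMI-8226-R than in RPMI-8226. Reads, which are not scaled by length, had the reverse order in RPMI-8226, with only 239 and 205 for ITGAE. The lengths behind the TPM of these 2 genes were not examined.

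Among 14 genes of integrin partners, ligands and activators, 1 rose, 8 fell and 5 were not called in RPMI-8226-R against RPMI-8226. Of all tested genes, 28.5% rose and 37.2% fell. The median log2 fold change of the 14 genes was -0.51, against -0.12 over all tested genes. On log2(TPM + 1) 3 rose and 6 fell, and the median turned to 0.05; with a minimum count of 50, 11 genes were tested, of which 1 rose and 5 fell. FERMT3, kindlin-3, which switches on blood cell integrins, was at 22.2 and 23.5 TPM in RPMI-8226, against 0.632 and 1.18 TPM for RPMI-8226-R (40.7-fold lower, adjusted p = 6.1e-16). The beta 2 chain ITGB2 was at 15.3 and 14.1 TPM and then 0.874 and 0.767 TPM (25.1-fold lower, adjusted p = 6.4e-16). APBB1IP, the RIAM adaptor that brings talin to integrins, was the 1 gene that rose on counts, from 9.09 and 9.71 TPM to 15.7 and 16.4 TPM (1.36-fold, adjusted p = 0.0018). TLN1, talin itself, was at 51.3 and 44.4 TPM and at 52.8 and 63.2 TPM and was not called (adjusted p = 0.41).

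Relative to the libraries labelled NCI-BL2171, 8 of the 14 genes were higher and 4 lower in RPMI-8226 (all tested genes: 41.1% and 35.6%). In RPMI-8226-R 4 were higher and 6 lower (all tested genes: 39.2% and 38.2%). ITGB1, the widely expressed beta chain that competes for ITGA4, was at 125.6 and 125.1 TPM in the libraries labelled NCI-BL2171, 29.8 and 28 TPM in RPMI-8226, against 26.5 and 31.0 TPM for RPMI-8226-R, so that ITGB7 exceeded ITGB1 only in the 2 RPMI-8226 lines. FERMT3 was at 65.6 and 52.4 TPM in the libraries labelled NCI-BL2171, 100.1-fold above RPMI-8226-R (adjusted p = 7.7e-19).

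CCND2 was the main D-type cyclin transcript of both RPMI-8226 lines, and CCND3 that of the libraries labelled NCI-BL2171. As a share of the summed TPM of the 3 genes, CCND2 made up 70.6% and 71.6% in RPMI-8226, 66.5% and 63.8% in RPMI-8226-R and 6.01% and 5.93% in the libraries labelled NCI-BL2171. CCND3 made up 15.2% and 15.9%, 23.5% and 21.4%, and 93.7% and 93.8% in the same order. CCND1 contributed 14.2% and 12.5% in RPMI-8226 and 10.0% and 14.9% in RPMI-8226-R, against 0.265% and 0.301% in the libraries labelled NCI-BL2171. The sum was nearly equal in the libraries labelled NCI-BL2171 (195.2 ± 1.38 TPM, SD, n = 2) and RPMI-8226 (205.5 ± 1.29 TPM), and lower in RPMI-8226-R (113.5 ± 11 TPM). In CPM, reads scaled by TMM library size with no regard to length, the sums took another order, at 350.6 ± 19.0, 492.8 ± 3.48 and 385.4 ± 2.58 CPM, so that RPMI-8226 was highest and RPMI-8226-R was not the lowest. The CPM shares of RPMI-8226-R against RPMI-8226 also turned, with CCND2 at 84.9% against 80.4% and CCND3 at 9.17% against 11.8%, so no direction is drawn for these shares between the 2 lines.

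**Figure D3:**
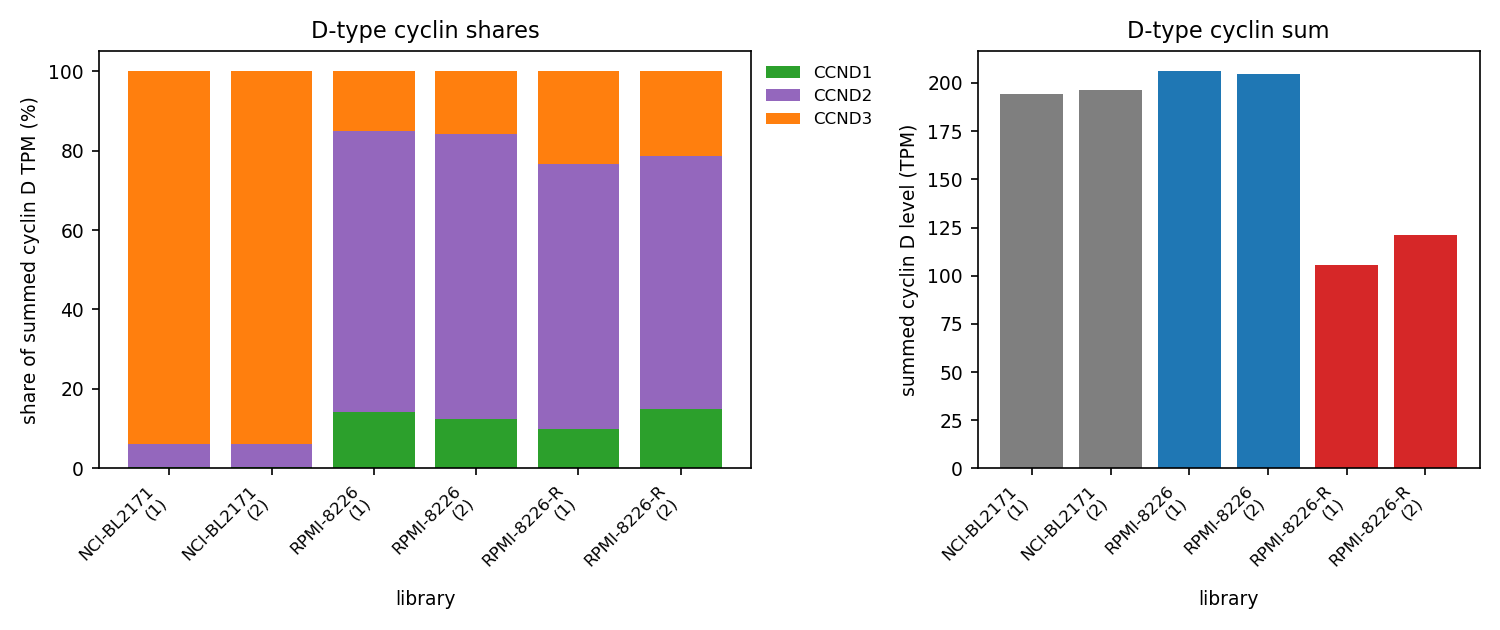
Left, percent of the summed TPM of CCND1, CCND2 and CCND3 that each gene makes up in the 6 libraries. Right, that sum in TPM, with bars from 0 and 1 bar per library: it lies between 105.7 and 121.2 TPM in RPMI-8226-R and between 194.3 and 206.4 TPM in the other 4 libraries.

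CCND1, cyclin D1, was at 29.3 and 25.6 TPM in RPMI-8226, 10.6 and 18.0 TPM for RPMI-8226-R and 0.515 and 0.590 TPM in the libraries labelled NCI-BL2171, on 1057, 958, 553, 732, 16 and 12 reads. It fell by 0.75 ± 0.11 on the log2 scale in RPMI-8226-R (1.68-fold, adjusted p = 4.5e-06). It was 71.2-fold higher in RPMI-8226 than in the libraries labelled NCI-BL2171 (adjusted p = 1.6e-17) and 42.3-fold higher in RPMI-8226-R (adjusted p = 2.8e-16). Both RPMI-8226 lines thus carried all 3 D-type cyclin transcripts at 10 TPM or more.

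CCND2, cyclin D2, was at 145.7 and 146.4 TPM in RPMI-8226, 70.2 and 77.3 TPM for RPMI-8226-R and 11.7 and 11.6 TPM in the libraries labelled NCI-BL2171. In reads, the values were 10575 and 10089, then 8853 and 9403, and 1748 and 1597. The TPM of RPMI-8226-R was near the midpoint between 0 and that of RPMI-8226, whereas its reads were only slightly fewer. On counts CCND2 fell by 0.28 ± 0.06 on the log2 scale (1.21-fold, adjusted p = 3.3e-04), while with an offset for effective length the fall was 1.31 (adjusted p = 3.6e-07) and on log2(TPM + 1) it was 0.98 (adjusted p = 1.3e-04). The direction was the same on all 3 scales, but the size differed widely.

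The gap comes with the length that the deposited tables give for the gene in each library, a value that varies between libraries and was read here as a mean over transcripts weighted by their estimated abundance. For CCND2 it was 2409 and 2356 bases in RPMI-8226, 5022 and 4848 bases in RPMI-8226-R, and 5422 and 5573 bases in the libraries labelled NCI-BL2171. The ratio of RPMI-8226-R to RPMI-8226 was 2.07, and 0.871% of 11255 genes with at least 100 reads in each of these libraries had as large a ratio in either direction. Of RPMI-8226 to the libraries labelled NCI-BL2171 the ratio was 0.433, matched by 0.175% of 10315 genes. RPMI-8226 was thus the line that stood apart. GENCODE 29 lists 4 CCND2 transcripts of 322 to 6480 bases, and an unnamed gene model, ENSG00000285901, overlaps CCND2 on the same strand from 4273762 to 4405490; its mean was 0.758 TPM in RPMI-8226, against 2.47 TPM for RPMI-8226-R, and how reads were shared between the 2 models was not tested.

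CCND1 moved the same way in length, to a lesser degree: 1239 and 1316 bases in RPMI-8226 and 2127 and 1684 bases in RPMI-8226-R, a ratio of 1.49 that 4.04% of genes matched. Its fall was 1.28 on the log2 scale with the offset for length. The lengths of MAF (a ratio of 0.94), CCND3 (1.01), NSD2 (1.04) and ITGB7 (1.03) hardly differed between RPMI-8226-R and RPMI-8226. Against the libraries labelled NCI-BL2171, CCND2 was 6.16-fold higher in RPMI-8226 (log2 2.62 ± 0.06, adjusted p = 3.7e-19; 3.85 with the offset) and 5.09-fold higher in RPMI-8226-R (log2 2.35 ± 0.06, adjusted p = 1.9e-18; 2.54 with the offset).

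**Figure D4:**
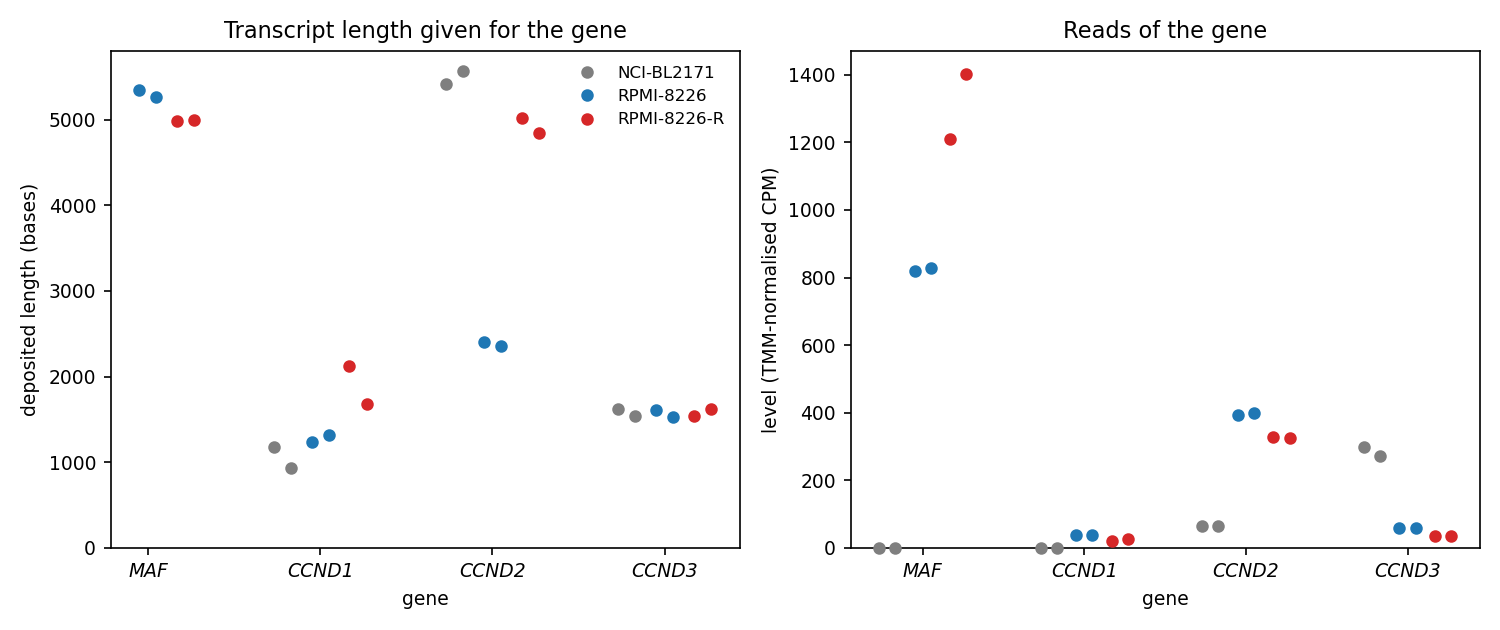
Length in bases that the deposited tables give for MAF and the D-type cyclins (left) and their TMM-normalised CPM (right), with 1 point per library, coloured by line; MAF has no reads in the libraries labelled NCI-BL2171 and is left out of the left plot there. CCND2 is at 2356 to 2409 bases in RPMI-8226 and 4848 to 5573 bases in the other libraries, while its reads are close in RPMI-8226 and RPMI-8226-R.

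CCND3, cyclin D3, showed the reverse order of lines, at 182.1 and 184.0 TPM in the libraries labelled NCI-BL2171, 31.4 and 32.5 TPM in RPMI-8226, against 24.8 and 25.9 TPM for RPMI-8226-R. It was 4.91-fold lower in RPMI-8226 (adjusted p = 1.6e-17) and 8.09-fold lower in RPMI-8226-R (adjusted p = 2.9e-19) than in those libraries. Between RPMI-8226-R and RPMI-8226 it fell by 0.72 ± 0.07 on the log2 scale (1.65-fold, adjusted p = 2.3e-08), and by 0.32 on log2(TPM + 1). As gene totals, all 3 D-type cyclins were therefore lower in RPMI-8226-R on either scale. The level of single transcripts was not tested, and the deposited lengths of CCND1 and CCND2 differed between the 2 lines. Each gene had no overlap in TPM between these lines, a trait whose share over all tested genes is not given here.

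**Figure D5:**
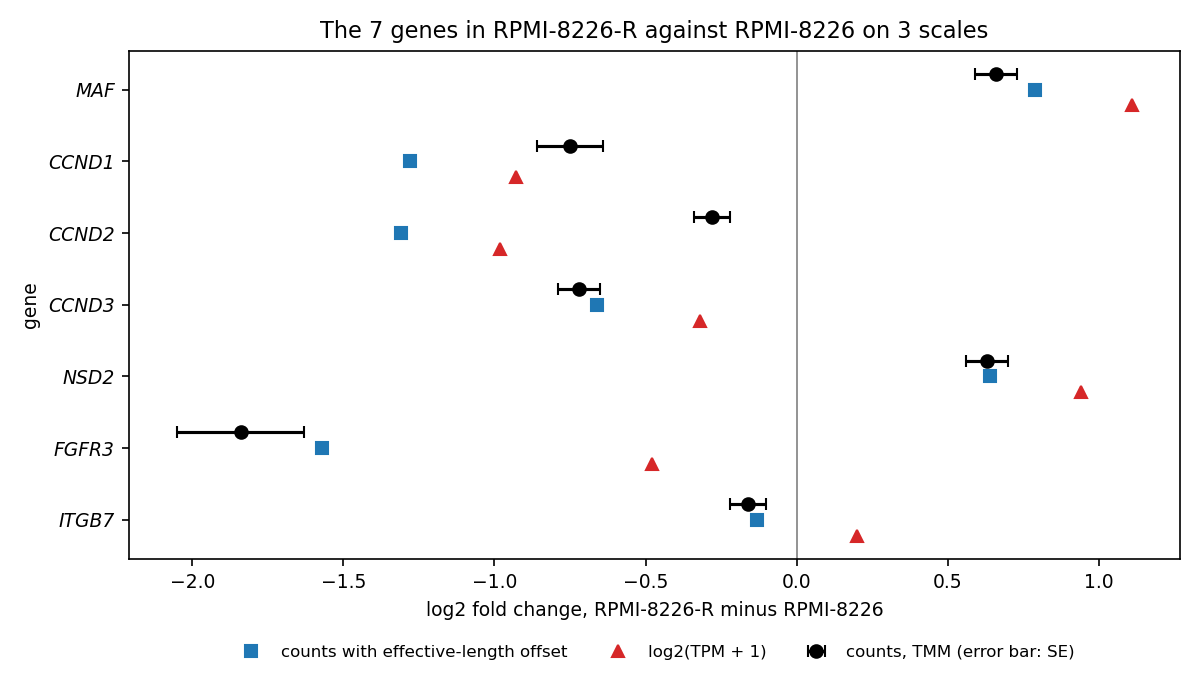
Log2 fold change of each gene in RPMI-8226-R minus RPMI-8226 (horizontal axis) from counts with TMM scaling (black, error bar 1 SE), from counts with an effective-length offset (blue) and from log2(TPM + 1) (red). MAF and NSD2 lie right of 0 and the 3 cyclins and FGFR3 left of 0 on all 3 scales; CCND2 ranges from -0.28 to -1.31, and ITGB7 changes side.

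The kinases that D-type cyclins bind moved in opposite directions. CDK4 was at 67.1 and 69.6 TPM in RPMI-8226, against 179.1 and 185.8 TPM for RPMI-8226-R, a rise of 2.06-fold (1.04 ± 0.07 on the log2 scale, adjusted p = 2e-11). CDK6 was at 38.6 and 47.7 TPM and then 20.4 and 23.6 TPM, and fell 1.25-fold (adjusted p = 1.5e-04). The TPM ratio of CDK4 to CDK6 was 1.74 and 1.46 in RPMI-8226, 8.76 and 7.89 in RPMI-8226-R, and 5.03 and 5.99 in the libraries labelled NCI-BL2171. The size of this ratio depends on the scale. In mean CPM, CDK4 was below CDK6 in RPMI-8226 (89.6 against 222.9). The 2 were close in RPMI-8226-R (184.2 against 177.6) and in the libraries labelled NCI-BL2171 (115.4 against 112.0). The lengths behind the TPM of CDK4 and CDK6 were not examined.

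Of 22 genes of cyclin D partners and G1 control, 6 rose, 13 fell and 3 were not called in RPMI-8226-R against RPMI-8226. The shares over all tested genes were 28.5% and 37.2%. The median log2 fold change of the list was -0.25, against -0.12 over all tested genes. On log2(TPM + 1) 8 rose and 8 fell. The kinase inhibitors were among the largest falls. CDKN1C was at 250.6 and 250.9 TPM in RPMI-8226, against 22.8 and 32.2 TPM for RPMI-8226-R (12.6-fold lower, adjusted p = 1.2e-13), and CDKN2D at 61.3 and 58.1 TPM and 7.19 and 7.97 TPM (11.1-fold lower, adjusted p = 2.3e-17). CDKN1B was at 47.0 and 49.6 TPM and 44.7 and 48.5 TPM, 1.33-fold lower on counts (adjusted p = 1.6e-05) and not called on log2(TPM + 1). RB1, the substrate of the cyclin D kinases, was at 18.3 and 18.9 TPM and 17.6 and 15.8 TPM, 1.36-fold lower on counts (adjusted p = 9.5e-05) and also not called on log2(TPM + 1).

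Of the E2F factors that RB1 proteins restrain, E2F4 rose from 24.8 and 26.3 TPM to 94.9 and 95.6 TPM (2.67-fold, adjusted p = 6.1e-13) and E2F3 from 6.97 and 7.00 TPM to 20.3 and 23.1 TPM (2.39-fold, adjusted p = 1.4e-11). E2F1 fell from 23.8 and 23.6 TPM to 19.0 and 19.6 TPM (1.62-fold, adjusted p = 4.8e-08). The E2F family thus held both rises and falls.

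Against the libraries labelled NCI-BL2171, 14 of the 22 genes were higher and 6 lower in RPMI-8226 (all tested genes: 41.1% and 35.6%). In RPMI-8226-R 14 were higher and 7 lower (all tested genes: 39.2% and 38.2%). Of the INK4 inhibitors, which block CDK4 and CDK6, CDKN2D was found in all 3 lines, and the other genes were at 0 in at least 1. CDKN2A was at 244.2 and 248.6 TPM in RPMI-8226, against 288.4 and 278.9 TPM for RPMI-8226-R and had 0 reads in the libraries labelled NCI-BL2171, a difference of at least 1692-fold and at least 1491-fold. Between the RPMI-8226 lines it was 0.18 ± 0.07 lower on the log2 scale on counts (adjusted p = 0.026) and higher in TPM, so no direction is drawn. CDKN2C had 0 reads in all 4 libraries of the RPMI-8226 lines and stood at 50.6 and 50.4 TPM in the libraries labelled NCI-BL2171, at least 582.8-fold above RPMI-8226 and at least 623.2-fold above RPMI-8226-R. CDKN2B, the neighbour of CDKN2A, also had 0 reads there and was at 6.29 and 6.59 TPM in RPMI-8226, against 1.71 and 2.73 TPM for RPMI-8226-R.

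Of 7 genes that mark D-type cyclins for destruction, 3 rose, 0 fell and 4 were not called in RPMI-8226-R against RPMI-8226. The shares over all tested genes were 28.5% and 37.2%. The median log2 fold change of the list was 0.15, against -0.12 over all tested genes. With the offset for length 3 rose and 1 fell, and likewise on log2(TPM + 1), where the median was 0.37. CUL4A, the scaffold of the ubiquitin ligase that holds AMBRA1, rose from 19.2 and 21.3 TPM to 80.4 and 77.8 TPM (3.22-fold, adjusted p = 5.7e-14). FBXO31, a receptor for cyclin D1 after DNA damage, rose from 3.65 and 3.86 TPM to 11.1 and 10.7 TPM (1.77-fold, adjusted p = 1.9e-06). AMBRA1, the receptor for all 3 cyclins, was at 7.27 and 6.02 TPM and at 8.61 and 9.03 TPM and was not called (adjusted p = 1). Against the libraries labelled NCI-BL2171, 2 were higher and 4 lower in RPMI-8226 (all tested genes: 41.1% and 35.6%). In RPMI-8226-R 3 were higher and 2 lower (all tested genes: 39.2% and 38.2%).

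NSD2 was expressed in all 3 lines and was lowest in RPMI-8226. It was at 46.9 and 47.6 TPM in RPMI-8226, 81.5 and 103.7 TPM for RPMI-8226-R and 81.0 and 89.9 TPM in the libraries labelled NCI-BL2171. It rose by 0.63 ± 0.07 on the log2 scale in RPMI-8226-R (1.55-fold, adjusted p = 1.1e-07) and was 0.72 ± 0.07 lower in RPMI-8226 than in the libraries labelled NCI-BL2171 (1.64-fold, adjusted p = 1.1e-08). RPMI-8226-R and the libraries labelled NCI-BL2171 overlapped, with a log2 difference of -0.08 ± 0.07 (adjusted p = 0.30). Without the second RPMI-8226-R library that difference was -0.18 and called (adjusted p = 0.019), and without the first it was 0.03.

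FGFR3, the neighbour of NSD2, was highest in the libraries labelled NCI-BL2171 and lowest in RPMI-8226-R. It was at 21.2 TPM in both libraries labelled NCI-BL2171, 0.983 and 1.10 TPM in RPMI-8226, against 0.266 and 0.689 TPM for RPMI-8226-R, on 2088, 1781, 108, 140, 29 and 45 reads. It was 15.6-fold lower in RPMI-8226 (log2 -3.96 ± 0.13, adjusted p = 7.4e-17) and 55.8-fold lower in RPMI-8226-R (log2 -5.80 ± 0.16, adjusted p = 2.2e-18) than in those libraries. Between RPMI-8226-R and RPMI-8226 it fell by 1.84 ± 0.21 on the log2 scale (3.58-fold, adjusted p = 1e-07), at levels where a single library held as few as 29 reads. The TPM ratio of NSD2 to FGFR3 was 3.82 and 4.25 in the libraries labelled NCI-BL2171, 47.7 and 43.1 in RPMI-8226 and 306.2 and 150.5 in RPMI-8226-R.

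The relatives of NSD2 were at lower levels in every line. NSD1, which also methylates lysine 36, was at 1.69 and 2.38 TPM in RPMI-8226, against 8.0 and 8.57 TPM for RPMI-8226-R, a rise of 4.53-fold (adjusted p = 1.1e-12). NSD3 was at 17.0 and 14.6 TPM and at 17.8 and 15.7 TPM, overlapping in TPM, with a log2 fold change on counts of 0.30 ± 0.08 (adjusted p = 0.0030) that was -0.24 with the offset for length. The TPM ratio of NSD2 to NSD1 was 27.7 and 20 in RPMI-8226 and 10.2 and 12.1 in RPMI-8226-R, and that of NSD2 to NSD3 was 2.76 and 3.26 and then 4.59 and 6.59. NSD2 was the most abundant of the 3 in all 6 libraries.

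Of 16 genes that write, read or erase methylation of H3K36 and H3K27, 9 rose, 5 fell and 2 were not called in RPMI-8226-R against RPMI-8226. The shares over all tested genes were 28.5% and 37.2%. The median log2 fold change of the list was 0.25, against -0.12 over all tested genes. With the offset for length 6 rose and 5 fell. DNMT3B, a DNA methyltransferase drawn to the lysine 36 mark, rose from 2.23 and 1.61 TPM to 15.8 and 19.9 TPM (6.68-fold, adjusted p = 3.3e-15). EZH2, the writer of the opposing lysine 27 mark, rose from 26.0 and 29.7 TPM to 41.0 and 48.9 TPM (1.25-fold on counts, adjusted p = 8.1e-04), and its relative EZH1 fell from 21.4 and 19.8 TPM to 6.74 and 13.3 TPM (2.26-fold, adjusted p = 0.010). The demethylase KDM4B was at 16.8 and 15.5 TPM and then 8.73 and 11 TPM (2.06-fold lower, adjusted p = 2.7e-10). Against the libraries labelled NCI-BL2171, where DNMT3B was at 58.0 and 72.5 TPM, 5 were higher and 6 lower in RPMI-8226 (all tested genes: 41.1% and 35.6%). In RPMI-8226-R 6 were higher and 10 lower (all tested genes: 39.2% and 38.2%).

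FGFR4 was the most abundant FGF receptor transcript in all 3 lines. FGFR4 was at 18.8 and 19.1 TPM in RPMI-8226, 18.4 and 22.4 TPM for RPMI-8226-R and 30.9 and 32.4 TPM in the libraries labelled NCI-BL2171; in RPMI-8226-R it was 1.38-fold lower on counts (adjusted p = 5.3e-05) and slightly higher, not called, on log2(TPM + 1). FGFR2 had 0 reads in the libraries labelled NCI-BL2171 and rose from 1.75 and 2.57 TPM in RPMI-8226 to 3.88 and 6.35 TPM in RPMI-8226-R (2.46-fold, adjusted p = 2.7e-06). FGFR1 was at 3.65 and 2.51 TPM and then 4.66 and 5.04 TPM (1.59-fold higher, adjusted p = 6.6e-04; not called with the offset for length).

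Of 22 genes of FGF receptor signalling 20 were tested. In RPMI-8226-R against RPMI-8226, 6 rose, 9 fell and 5 were not called (all tested genes: 28.5% rose, 37.2% fell). The median log2 fold change was -0.25, against -0.12 over all tested genes. With the offset for length 2 rose and 9 fell, and on log2(TPM + 1) the median turned to 0.02. The ligand FGF9 was at 10.3 and 11.1 TPM in RPMI-8226, against 2.25 and 3.47 TPM for RPMI-8226-R (4.18-fold lower, adjusted p = 3.8e-11), with 0 reads in the libraries labelled NCI-BL2171. The receptor adaptor FRS3 was at 5.92 and 6.10 TPM and then 1.75 and 2.29 TPM (3.95-fold lower, adjusted p = 6e-10). SOS1, which loads RAS with GTP, was at 6.38 and 6.35 TPM and then 8.73 and 12.1 TPM (1.83-fold higher, adjusted p = 2.5e-07; not called with the offset for length). Against the libraries labelled NCI-BL2171, 9 were higher and 7 lower in RPMI-8226 (all tested genes: 41.1% and 35.6%). In RPMI-8226-R 11 were higher and 8 lower (all tested genes: 39.2% and 38.2%).

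Of the 8 nearest protein-coding genes of MAF 4 were tested. In RPMI-8226 1 of them was higher and 3 were lower than in the libraries labelled NCI-BL2171 (all tested genes: 41.1% and 35.6%). WWOX, the large fragile-site gene in which many MAF breakpoints of myeloma lie, ends 373 kb from MAF. It was at 25.5 and 24.0 TPM in RPMI-8226, 20.5 and 28.2 TPM for RPMI-8226-R and 4.68 and 5.34 TPM in the libraries labelled NCI-BL2171, 7.0-fold below RPMI-8226 (adjusted p = 3.1e-15). DYNLRB2 and CDYL2, the nearest protein-coding genes on the other side, did not exceed 0.0645 TPM in the mean of any line, at 940 kb and 997 kb from MAF. CMC2 and CENPN, further out, were at 69.3 ± 1.60 and 48.0 ± 2.80 TPM in RPMI-8226 (SD, n = 2) and at 121.9 ± 4.89 and 99.0 ± 0.864 TPM in the libraries labelled NCI-BL2171.

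A long non-coding RNA between them, LINC01229, was chosen after its values were seen. It starts 75.4 kb from MAF and had 0 reads in the libraries labelled NCI-BL2171, 116.4 and 114.4 TPM in RPMI-8226, against 139.6 and 158.1 TPM for RPMI-8226-R. It was at least 1653-fold higher in RPMI-8226 than in the libraries labelled NCI-BL2171 (adjusted p = 3.8e-22) and was not called between the RPMI-8226 lines (log2 fold change 0.05 ± 0.06, adjusted p = 0.55). MAFTRR, a non-coding RNA 115 kb from MAF that was also chosen afterwards, stood much lower, at 3.16 and 4.43 TPM in RPMI-8226, against 0.843 and 1.12 TPM for RPMI-8226-R, and fell 3.63-fold (adjusted p = 2.0e-04). It rested on 66, 93, 19 and 28 reads in these libraries. Its model lies within the span of LINC01229, and how reads were shared between the 2 was not tested. MAF thus rose in RPMI-8226-R while LINC01229 was nearly level and MAFTRR fell on counts.

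Between the RPMI-8226 lines, some neighbours of the other genes were called in the direction of the gene beside them, and some in the other. MYEOV, 273 kb from CCND1 and often co-amplified with it, was at 1.78 and 1.3 TPM in RPMI-8226 and had 0 reads in the resistant line, lower by a factor of at least 29 (adjusted p = 2.4e-10). LTO1, whose model overlaps the end of CCND1, was at 7.46 and 7.16 TPM and then 8.86 and 11.7 TPM, 1.39-fold higher on counts (adjusted p = 0.0060) and not called on log2(TPM + 1) or without the first RPMI-8226 library. BYSL, a ribosome assembly factor 1.89 kb from CCND3, rose from 6.29 and 7.09 TPM to 29.7 and 28.3 TPM (2.87-fold, adjusted p = 2.2e-10) while CCND3 fell. LETM1, which lies between FGFR3 and NSD2, rose from 4.17 and 4.33 TPM to 11 and 14.6 TPM (2.75-fold, adjusted p = 5.7e-12), in the direction of NSD2 and not of FGFR3. Of the 8 nearest protein-coding genes of NSD2, all were tested, of which 3 rose, 4 fell and 1 was not called (all tested genes: 28.5% rose, 37.2% fell).

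Genes whose levels followed each of the 7 most closely over the 6 libraries were ranked among 11839 genes by the root mean square difference of log2(TPM + 1), each gene centred on its own mean. For MAF they were PCP4 (0.272), LINC02009 (0.397) and CDKN2A (0.42). PCP4, a small calmodulin-binding protein, was at 0 TPM in the libraries labelled NCI-BL2171, 110.9 TPM in RPMI-8226 on average, against 193.4 TPM for RPMI-8226-R. ITGB7 was nearest to the calcium-binding protein PVALB (0.214), IGFBP3 (0.382) and CD8B (0.401), of which PVALB was at 0, 632.0 and 735.0 TPM in the same order. All of these were at 0 TPM in the libraries labelled NCI-BL2171.

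CCND1 was nearest to ANO9 (0.107), LAT2 (0.13) and CXCL16 (0.165), and CCND2 to ENO3 (0.057), EDA (0.059) and N4BP2L1 (0.082). ENO3, the muscle enolase, was at 8.7 TPM in the libraries labelled NCI-BL2171, 107.0 TPM in RPMI-8226 and, for RPMI-8226-R, 54.2 TPM. CCND3 was nearest to MAP3K20 (0.053), C3orf86P (0.058) and FUT1 (0.07), NSD2 to DDX55 (0.036), AP4B1 (0.05) and FUBP3 (0.051), and FGFR3 to ZDHHC8 (0.098), PI4KAP1 (0.103) and CAMK1 (0.154). DDX55, an RNA helicase, was at 12.6, 6.92 and 14.1 TPM, the same order of lines as NSD2. With 3 lines, many genes can share an order, and these lists are descriptions.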

How the data were processed

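RNA-seq was made from rRNA-depleted total RNA, per the labels' protocols. The authors deposited 1 table per library with length, effective length, TPM and estimated counts per gene, per the file headers. The submitters' processing notes name GRCh38.p13 as the build. The sources used here give no quantifier, annotation or use of strand, so reads of overlapping genes and near-identical copies can be split in ways not checked. Deposited lengths and effective lengths, in bases, served as another unit for an offset. The deposited estimated counts were rounded and the deposited TPM values used as levels. Of 61544 rows, 46 pseudoautosomal Y copies were added to their X copies; 61399 of 61498 genes had a symbol.

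Counts were tested with edgeR 4.0.16 (R 4.3.3; TMM, filterByExpr with a minimum count of 10 and total of 15, robust quasi-likelihood F test, two-sided) in 1 fit over 6 libraries with 3 residual degrees of freedom, adjusted by Benjamini-Hochberg over 20081 genes at 0.05; fold changes are estimate ± SE, and the typical biological coefficient of variation was 6.81%. Library totals were 26790603 and 23952370 (NCI-BL2171), 29052199 and 27947579 (RPMI-8226) and 25695927 and 26860081 (RPMI-8226-R). Chi-square values per gene between libraries of a line were 5.48, 3.47 and 11.0, so none was a copy. Where a line had 0 reads of a gene, folds were taken against a floor of 3 reads per library, which covers counting error only. On simulated data for RPMI-8226-R against RPMI-8226 (18218 genes, 200 changed), the test found 70.1% of changes of 1.5-fold and 88.1% of those of 2-fold, with 11 false among 182 calls. For changes of 1.5-fold against NCI-BL2171 it found 68.7% (RPMI-8226) and 62.7% (RPMI-8226-R). The simulation gave every gene the same spread and changed few genes, whereas 65.6% were called in the data. These rates therefore need not hold for the data.

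Named genes were the 7, a preset set, up to 2 rises and 2 falls per list and comparison with a mean of at least 1 TPM, neighbours (4 protein-coding genes per side) and nearest patterns (3 genes each, at least 5 TPM). The genes and lists were chosen with earlier results of these data known. Alternatives used DESeq2 1.42.0 size factors and Wald test, limma 3.58.1 (voom; trend on log2 of TPM plus 1 or 0.1), upper-quartile scaling, a length offset, other filters, a replicate block, the 2 compared lines alone and each library left out. Some items are not reported here.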

Additional observations from a re-analysis of the deposited data

How the results depend on the processing

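Of 357 refits of the 7 genes' 3 comparisons, 343 kept direction and call, 8 lost a call, 1 gained one and 5 changed sign. ITGB7 in RPMI-8226-R against RPMI-8226 was not called with DESeq2 size factors (log2 fold change -0.11), the length offset (-0.13), DESeq2's Wald test (-0.11) or the 2 lines alone (-0.08), and was 0.20 with either TPM pseudocount; without single libraries it ranged from -0.20 to -0.10. NSD2 in RPMI-8226-R against the libraries labelled NCI-BL2171 was 0.11 with either TPM pseudocount and ranged from -0.18 to 0.03 without single libraries. The cause was not tested. Counts of called genes without single libraries ranged from 11600 to 13192 (RPMI-8226-R against RPMI-8226), 14396 to 16281 (RPMI-8226 against the libraries labelled NCI-BL2171) and 14435 to 15683 (RPMI-8226-R against them).

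Shares of the D-type cyclins in CPM, which ignore length, were 0.152%, 18.3% and 81.5% for CCND1, CCND2 and CCND3 in the libraries labelled NCI-BL2171, 7.83%, 80.4% and 11.8% in RPMI-8226, and 5.95%, 84.9% and 9.17% in RPMI-8226-R; the main cyclin of each line was the same, but from RPMI-8226 to RPMI-8226-R the CCND2 share was higher and the CCND3 share lower, the reverse of the TPM shares. The summed CPM, an alternative chosen after seeing the data, is given with the shares above. Replicate numbers did not pair the libraries (correlations of 0.0443 for NCI-BL2171 with RPMI-8226, 0.028 for NCI-BL2171 with RPMI-8226-R and 0.0429 for the RPMI-8226 lines); numbers follow the sample titles, and the deposited names of the NCI-BL2171 tables carry them the other way round, which would turn the sign of the first 2 and swap those libraries in the block, a fit not run; with a replicate block 13045, 15295 and 15426 genes were called in the 3 comparisons, in the order of the counts without single libraries, and no call of the 7 genes changed. With 29 and 45 reads, FGFR3 in RPMI-8226-R is limited by depth.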
